A study of Mus musculus with 3 samples.

Results

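The genes described here are the cytosolic ribosomal protein genes of the mouse, chosen by their names: Rpl or Rps followed by a number, with an optional a or x, together with Rplp0, Rplp1, Rplp2 and Rpsa. The rule found 76 of the 43472 genes listed, 46 of the large subunit and 30 of the small subunit, and used no measured value. RNA-seq was measured in 3 libraries of 1 condition. Primary fibroblasts from the tail of C57BL/6 mice were scratched, the in vitro model of a wound, and exposed for 5 h to the soluble fraction of skin micrografts (MG) diluted in medium, together with PD0325901. PD0325901 is an inhibitor of MEK, the kinase that activates ERK. All 3 libraries carried both the MG and the inhibitor, and unwounded, untreated and MG-only cells were not analysed here. No comparison between conditions was therefore made, and no p-value is given. The labels number the libraries as replicates 1, 2 and 3 and do not say whether they came from separate cultures or animals, so the spread between them may be technical in part.

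The libraries held 22540518, 27037783 and 17244505 reads on genes in replicates 1, 2 and 3. All 9 fibroblast markers examined passed 10 normalized counts in every library. Their summed level was 347294 to 512836 normalized counts, led by the collagen Col1a1. The summed levels of 5 markers each were 34.4 to 81.6 for keratinocytes, 26.9 to 90.1 for leukocytes, 55.7 to 244 for endothelium and 2641 to 8494 for skeletal muscle. Krt15, Krt1 and Myod1 had 0 reads, and the muscle signal came almost wholly from Acta1 and Des. Several markers differed widely between replicates. Thy1 was 2031, 15760 and 1652 normalized counts in replicates 1, 2 and 3, with replicate 2 far above the others. The matrix proteoglycan Lum was 5073, 289 and 1164, with replicate 2 lowest and replicate 1 highest. Replicate 2 was the highest library for the muscle genes Acta1, at 2429, 7286 and 5586, and Des, at 212, 1208 and 77.0, and for the endothelial marker Tek, at 6.95, 185 and 2.37. The endothelial markers Egfl7, at 69.5, 53.6 and 49.8, Pecam1, at 9.55, 3.52 and 2.37, and Kdr, at 4.34, 1.41 and 0, were instead highest in replicate 1. In replicate 2, Myod1 and Cdh5 were at 0 reads, Pecam1 at 5 and Kdr at 2. The part of these markers in the values of replicate 2 was not tested. In bulk RNA, fewer cells of a type and less RNA per cell cannot be told apart.

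Ribosomal proteins assemble with ribosomal RNA into the large subunit, which joins amino acids, and the small subunit, which reads the mRNA. Their mRNAs belong to the TOP class, which starts with a C followed by a run of pyrimidines (C or T). Through this start, translation of TOP mRNAs is regulated by growth signals, chiefly by mTORC1 and LARP1, largely without a change in mRNA amount. Normalized counts measure mRNA amount and not its translation.

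Start sites annotated by RefSeq were matched for 56 of the 76 genes, with 66 start sites, in build GRCm38.p6. The windows that follow run from 15 bases before to 15 bases after the annotated start, with the longest run of C and T within the window in capitals. The first set shows genes whose annotated start opens with a C and 4 or more further pyrimidines, and holds members of both subunits. Rps6 is at chr4:86857353-86857382 (minus strand), Rps18 at chr17:33955651-33955680 (minus strand), Rplp2 at chr7:141447636-141447665 (plus strand), Rpl38 at chr11:114668565-114668594 (plus strand), Rpl35 at chr2:39005117-39005146 (minus strand) and Rps21 at chr2:180257364-180257393 (plus strand).
Rps6: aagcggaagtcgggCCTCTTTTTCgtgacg
Rps18: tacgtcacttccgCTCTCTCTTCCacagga
Rplp2: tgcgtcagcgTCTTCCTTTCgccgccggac
Rpl38: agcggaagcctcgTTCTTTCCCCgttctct
Rpl35: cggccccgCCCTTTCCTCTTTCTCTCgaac
Rps21: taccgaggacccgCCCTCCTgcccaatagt

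The second set shows genes without such a start at the annotated base, among them 3 of the 5 genes with the widest range between libraries. The other 2 of these 5, Rplp2 and Rps21, are in the first set. Rpl41 is at chr10:128549154-128549183 (minus strand), Rps28 at chr17:33824548-33824577 (minus strand), Rpl24 at chr16:55966260-55966289 (plus strand) and Rpl13a at chr7:45128731-45128760 (minus strand). In Rpl13a a run of at least 13 pyrimidines begins at the third base, with the annotated start counted as the first, and reaches the end of the window.
Rpl41: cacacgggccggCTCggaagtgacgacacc
Rps28: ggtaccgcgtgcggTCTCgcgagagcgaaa
Rpl24: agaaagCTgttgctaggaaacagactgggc
Rpl13a: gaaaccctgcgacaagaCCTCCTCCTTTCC

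A C followed by 4 pyrimidines stood exactly at an annotated start in 13 of the 56 genes (23.2%), against 3.01% of 27025 genes with a RefSeq start. With the run allowed to begin within 5 bases of the start, the shares were 48.2% and 21.2%. The median longest pyrimidine run within 30 bases of the start was 8 bases in the 66 ribosomal protein start sites and 5 bases in all 32851. The letters CTTCCGG, sought on both strands from 250 bases before to 50 bases after the start, were found in 41.1% of the 56 genes and 9.93% of all genes. AAGATGG was found in 16.1% and 7.28%, and TATAAA in 10.7% and 15.7%. These shares describe the letters of the reference around annotated starts, which can lie some bases from the start used in fibroblasts. The 13 genes with the exact start and the 43 without it had median log2 ratios of -0.23 and -0.30 in replicate 2 against the mean of the other replicates. With the run allowed within 5 bases, the order was the opposite. The 27 genes with it had a median of -0.32 and the 29 without it -0.25.

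All 76 genes were detected, meaning 10 or more normalized counts in every library. The lowest read count of any of them in any library was 1605, which gives a counting error of at most 2.50%, and the median SD between libraries was 0.20 on the log2 scale. The lowest mean, 1601 normalized counts for Rpl29, was higher than 79.5% of the 12204 detected genes. Of the 100 genes of highest mean, 3 were ribosomal protein genes, and of the 200 highest, 14. Together they took 3.72% of the reads in replicate 1 (95% Wilson interval 3.71 to 3.73), 3.10% in replicate 2 (3.09 to 3.10) and 3.24% in replicate 3 (3.24 to 3.25). The mean share was 3.35% ± 0.326 (SD, n = 3). The intervals cover counting error only and do not overlap, and replicate 1 was the highest. Reads that aligned to more than 1 place, such as a pseudogene copy, were not counted, so these shares may be too low. The large subunit genes took 2.15%, 1.82% and 1.89% in replicates 1, 2 and 3, and the small subunit genes 1.57%, 1.28% and 1.35%. Both subunits were highest in replicate 1 and lowest in replicate 2.

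**Figure D1:**
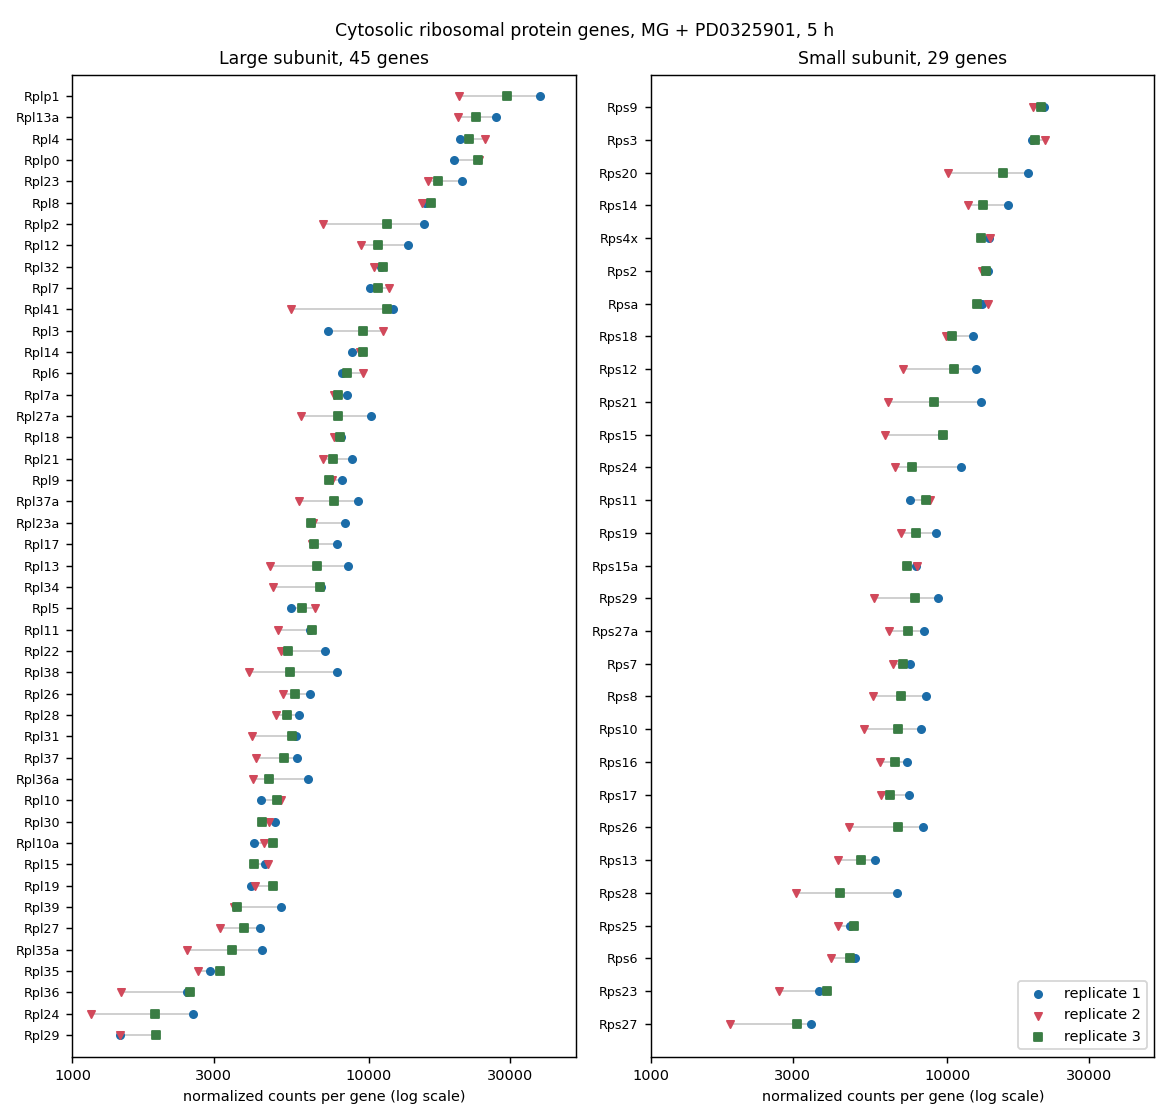
Normalized counts of 74 ribosomal protein genes on a log axis, in panels of 45 large and 29 small subunit genes ordered by mean. Each marker is 1 library and the grey line joins the lowest and the highest. Replicate 2 (triangles) is the leftmost marker in most rows, and the markers of Rps2 nearly coincide.

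Levels of different genes were compared per kb of all annotated exons merged. On this scale the 76 genes ran from 969 to 58319 normalized counts per kb, with a median of 3665, which was higher than 98.7% of 18858 genes with reads and a length. The highest was Rplp1 (chr9:61913284-61914542, GRCm38), a protein of the stalk that recruits elongation factors, with 75875, 40504 and 58577 normalized counts per kb in replicates 1, 2 and 3. It was followed by Rps15 at 13445 ± 3150 (mean ± SD, n = 3), Rplp0, the base of the same stalk, at 13347 ± 1453, Rps21 at 11634 ± 4133 and Rpl8, which lies near the peptidyl transferase centre, at 11469 ± 411. The means of Rps15, Rplp0 and Rps21 lay within their spread of each other. Rplp0 was above Rpl8 in all 3 libraries, and the 3 libraries of Rplp1 all lay above every library of the others.

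The 5 lowest per kb of merged exons were Rpl35a at 969 ± 274 normalized counts per kb (mean ± SD, n = 3), Rps15a at 1223 ± 50.8, Rps24 at 1352 ± 373, Rpl29 at 1421 ± 238 and Rpl30 at 1519 ± 76.6. The means of neighbours in this order lay within their spread of each other, though Rpl35a was below Rps15a in all 3 libraries. Merged exons include those of retained-intron transcripts, and the order depends on the length used. Per kb of the transcript matched to RefSeq, Rps24 was 16116 normalized counts per kb and moved from rank 74 to rank 15, and Rpl35a was 6832 and moved from rank 76 to rank 51. Rplp1 kept rank 1 at 58319, but the genes below it changed order. Rps15 moved from rank 2 to rank 16, Rplp0 from rank 3 to rank 14 and Rpl8 from rank 5 to rank 11. Rps21 moved from rank 4 to rank 3, and Rps9 from rank 17 to rank 2. Rps15a was the lowest at 1481, with Rpl29 next at 2184. On that scale the highest gene was 39.4-fold the lowest, against 60.2-fold per kb of merged exons.

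**Figure D2:**
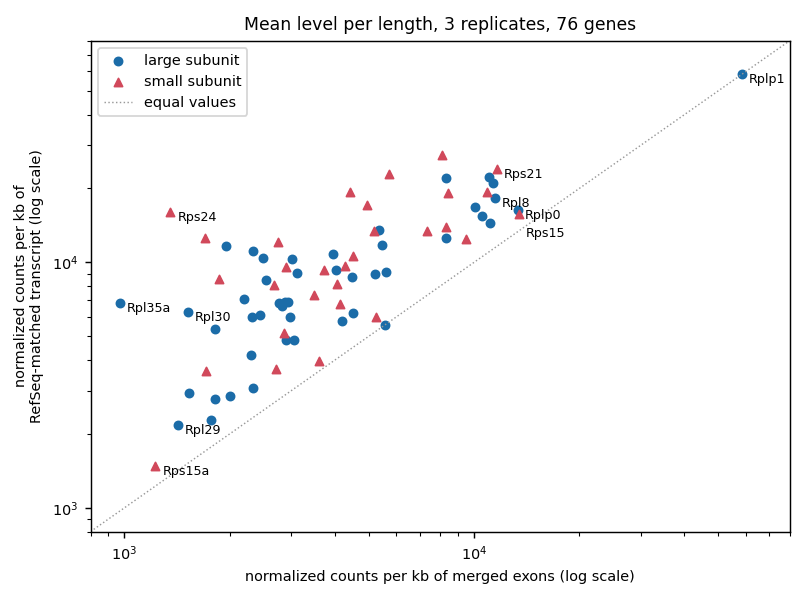
Mean level of each of the 76 genes over 3 replicates, as normalized counts per kb of merged exons (x) and per kb of the RefSeq-matched transcript (y), both on log axes. Points above the dotted line have merged exons longer than the matched transcript. Rplp1 is the highest on both axes, and Rps24 lies far above the line.

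Many of these genes have processed pseudogenes, and only uniquely aligned reads of 50 bases were counted. A median of 52.4% of each gene's 50-base exonic windows occurred in no other annotated gene. In 14 genes the share was under 20%, the lowest being Rpl35 at 4.91% and Rpl5 at 6.16%. Levels of the genes with few windows of their own are therefore uncertain. Per window of its own, Rplp1 again had rank 1, but the mean of Rps18 lay close below it at rank 2. Rps18 has 13.3% own windows and had rank 31 per kb of merged exons. Per own window, Rps15, Rplp0, Rps21 and Rpl8 had ranks 31, 24, 16 and 48. The 252 listed ribosomal protein pseudogenes held 0.0138%, 0.00512% and 0.00643% of the reads in replicates 1, 2 and 3, and 12 of them passed 10 normalized counts in every library. Exons overlapped those of another gene on the same strand in 4 genes (Rpl13a, Rps10, Rpl19 and Rpl24) and on the opposite strand in 18. The library kit keeps strand, but whether counting used strand is not given in the sources used here, so reads of these genes may be shared or lost.

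Between replicates the ribosomal protein genes passed each threshold of range in smaller shares than all 12204 detected genes. Those genes reach down to the minimum of 10 normalized counts. The lowest ribosomal protein mean was higher than 79.5% of them, so levels were not matched. The highest library was over 1.5-fold the lowest in 23 of the 76 genes (30.3%), against 48.8% of all 12204 detected genes. It was so in 31.6% of mitochondrial ribosomal protein genes and 28.6% of other TOP mRNA translation genes. For ribosome biogenesis it was 13.6%, and for RNA polymerase I and its factors 15.4%. The paralogs (66.7%) and the regulators of TOP mRNAs and S6 (61.5%) were above 48.8%. The highest library exceeded the lowest by over 25% in 40 of the 76 genes, or 52.6% against 78.2%, and by over 2-fold in 5, or 6.58% against 22.0%. The median SD of log2 normalized counts was 0.20, against 0.30 over all detected genes. The median biological coefficient of variation, estimated by edgeR, was 23.4% against 28.6%. Replicates 1 and 2 set much of this spread. Without replicate 2 the count over 1.5-fold was 1 (19.2% of all detected genes), without replicate 1 it was 7 (30.5%), and without replicate 3 it was 23 (36.1%). The median SD of log2 became 0.13 without replicate 1, 0.12 without replicate 2 and 0.26 without replicate 3.

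The stalk held both kinds of gene. Rplp1 was 37861, 20212 and 29230 normalized counts in replicates 1, 2 and 3, a 1.87-fold range. Rplp2, its partner, was 15360, 7023 and 11524, a 2.19-fold range. Replicate 2 was the lowest and replicate 1 the highest in both. Rplp0, the protein that anchors the pair, was 19361, 23603 and 23462, so that replicate 1 was here the lowest. The ratio of Rplp1 to Rplp0 counts, which does not depend on library scaling, was 1.96, 0.856 and 1.246, and that of Rplp2 to Rplp0 was 0.793, 0.298 and 0.491. The ratio of Rplp1 to Rplp2 was steadier, at 2.46, 2.88 and 2.54.

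The other large subunit genes with the widest range were Rpl24 and Rpl41. Rpl24 (chr16:55966275-55971435), a protein at the interface of the subunits, was 2562, 1159 and 1902 normalized counts in replicates 1, 2 and 3, a 2.21-fold range. This gene shares 47.0% of its exonic bases with the overlapping gene model Gm28037, so its counts are uncertain. Rpl41, which encodes a peptide with a coding length of only 75 bases, was 12052, 5486 and 11530, a 2.20-fold range, with replicate 2 well below both others. Rpl5 and Rpl11, which bind 5S rRNA and can inhibit Mdm2, did not share an order: Rpl5 was 5463, 6570 and 5973 and Rpl11 was 6343, 4938 and 6446. Of the 7 genes listed for the catalytic core and exit tunnel, 4 were lowest in replicate 2, against 56 of all 76 and 37.3% of all detected genes, with a median log2 ratio of -0.07 in that library. Rpl3, one of these and among the longest members, ran the other way at 7291, 11145 and 9582. It was the 1 ribosomal protein gene over 25% above the mean of the others in replicate 2, against 28.2% of all detected genes. Among the narrowest ranges in the large subunit was that of Rpl18, at 8080, 7629 and 8003 (1.06-fold).

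In the small subunit, Rps28 (chr17:33819027-33824562) was 6758, 3093 and 4352 normalized counts in replicates 1, 2 and 3, a 2.19-fold range. Rps21 was 12958, 6301 and 9012, a 2.06-fold range, again with replicate 2 lowest. Both encode short proteins, with coding lengths of 207 and 249 bases. Among the narrowest ranges was that of Rps2 (chr17:24718116-24721929), part of the mRNA path, at 13711, 13071 and 13503 (1.05-fold). Rps4x was 13808, 13893 and 13007 (1.07-fold).

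Of the 9 genes listed for decoding, the mRNA path and phosphorylation, 7 were lowest in replicate 2, close to the 73.7% of all 76 genes and against 37.3% of all detected genes. Their median log2 ratio in that library was -0.23, the same as over the 76. Rps6, the substrate of S6 kinase, was 4864, 4060 and 4683. Rpsa, a small subunit protein also known as a laminin receptor, was 13103, 13731 and 12617, highest in replicate 2. Rps27a, made as a fusion with ubiquitin, was 8320, 6349 and 7349. Of 9 genes mutated in Diamond-Blackfan anaemia, 8 were lowest in replicate 2, against 73.7% of all 76 genes and 37.3% of all detected genes, with a median log2 ratio of -0.37. The exception was Rpl5. Rps19, the gene most often mutated in that anaemia, was 9133, 6986 and 7835.

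The libraries differed in the direction of the group as well as in its size. Of the 76 genes, 56 (73.7%) had their lowest value in replicate 2, against 37.3% of all detected genes, 12 (15.8%) in replicate 1, against 34.5%, and 8 (10.5%) in replicate 3, against 28.3%. The highest value was in replicate 1 for 50 (65.8%), against 31.5%, in replicate 2 for 13 (17.1%), against 40.6%, and in replicate 3 for 13 (17.1%), against 27.9%. The order of replicate 1 above 3 above 2 was shown by 46 genes (60.5%), against 21.4%. Relative to the mean of the other replicates, the median log2 ratio was 0.26 in replicate 1, -0.23 in replicate 2 and 0.01 in replicate 3, and over all detected genes -0.05, 0.01 and -0.03. Without replicate 2 the median of replicate 1 was 0.14, and without replicate 3 it was 0.34. The median of replicate 2 was -0.17 without replicate 1 and -0.34 without replicate 3, and that of replicate 3 was 0.17 without replicate 1 and -0.14 without replicate 2. Each ratio has the other libraries in its denominator, so the 3 medians are not separate measurements. Large and small subunits gave 0.24 and 0.27 in replicate 1 and -0.22 and -0.29 in replicate 2. In replicate 2, 32 genes (42.1%) were under 80% of the mean of the others, against 27.7% of all detected genes, and 1 gene (1.32%) was over 25% above it, against 28.2%. In replicate 1, 26 genes (34.2%) were over 25% above the mean of the others, against 21.3%, and 1 gene (1.32%) was under 80% of it, against 26.5%. Scaling to equal library totals shifted the median of all genes in replicate 3 to -0.11 and lowered the 56 genes to 44, and the medians of the ribosomal protein genes were then 0.27, -0.16 and -0.07.

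The ratio between libraries followed the length of the coding sequence in replicates 1 and 2. Across the 76 genes, Spearman's rho of coding length with the log2 ratio was -0.67 for replicate 1, 0.71 for replicate 2 and -0.06 for replicate 3, and Pearson's r was -0.67, 0.72 and -0.12. In 11023 other detected genes rho was -0.47, 0.39 and -0.03. With merged exon length in place of coding length, rho across the 76 genes was -0.15, 0.30 and -0.29. The relation thus depended on the length used. These are correlations across genes, which share the same 3 libraries and are not independent replicates. Without replicate 2, rho of coding length for replicate 1 was -0.51. For replicate 3 it was -0.64 without replicate 1 and 0.51 without replicate 2. The values -0.51 and 0.51 are the same comparison of replicates 1 and 3 with the sign reversed. All 9 ribosomal protein genes with a coding length under 300 bases were lowest in replicate 2, with a median log2 ratio of -0.75, as were 78.4% of 208 other genes of that length, with a median of -0.57. From 300 to under 450 bases it was 25 of 28, with a median of -0.39, and 69.2% of 504 others, with -0.42. From 450 to under 600 bases it was 14 of 19, with -0.20, and 63.7% of 689 others, with -0.32. From 600 to under 1200 bases it was 8 of 18, with 0.04, and 48.9% of 3188 others, with -0.13. The bins of 9, 19 and 18 genes hold under 20 genes each. After removal of a fit on log coding length and GC content over all genes, the medians of the ribosomal protein genes changed sign, to -0.12 in replicate 1 and 0.17 in replicate 2. The share of a gene's own 50-base windows showed little relation to the ratios, with rho between -0.14 and 0.06.

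**Figure D3:**
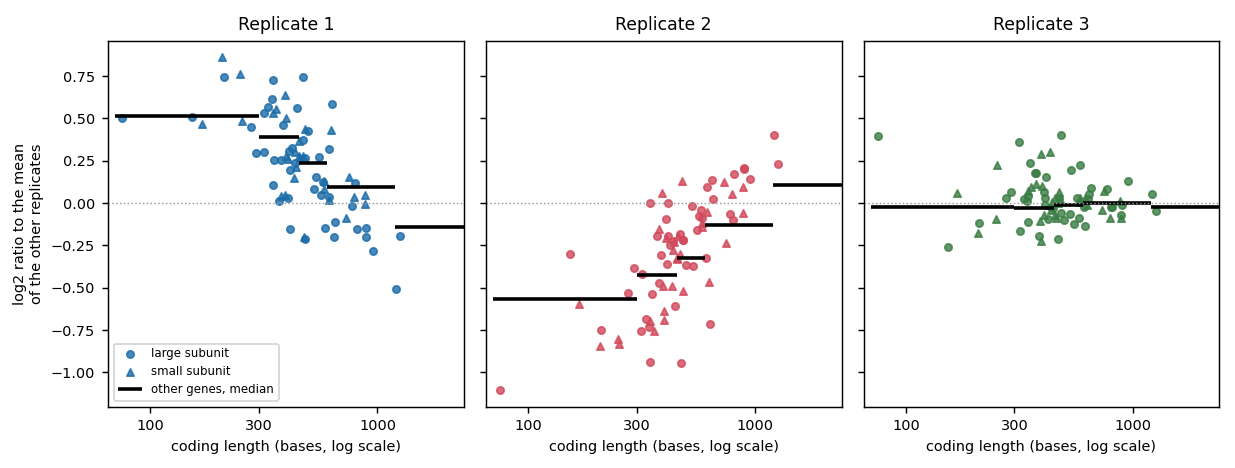
Log2 ratio of each library to the mean of the others (y) against coding length in bases on a log axis (x) for the 76 genes, with 1 panel per replicate. Circles are large and triangles small subunit genes, and black bars are medians of the other detected genes in each length bin under 2400 bases. The 2339 other genes of 2400 bases and over are not shown. Short genes lie above 0 in replicate 1 and below 0 in replicate 2, both among the 76 genes and in the bars.

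Genes related to the ribosomal protein genes did not all behave alike between libraries. Of the 9 ribosomal protein paralogs, 6 were detected, and 5 of these were lowest in replicate 2, against 37.3% of all detected genes. Their median log2 ratios were 0.60, -0.47 and -0.09 in replicates 1, 2 and 3. Rps27l, a p53 target, had the highest mean, at 5750, 4299 and 4485 normalized counts. Rps4l had the widest range, at 1065, 161 and 650, which is 6.63-fold. No share of own windows was available for Rps4l. A coding length was matched for 5 of the 6 detected paralogs. Rpl3l, known from heart and skeletal muscle, and Rpl10l, known from testis, had 0 reads in all 3 libraries, and 0 reads allow up to 3, or 2.11 to 3.56 normalized counts. Rps27rt has 8.92% own windows, and its 3568, 2277 and 2510 normalized counts cannot be told apart from reads of its near-identical copies.

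Some ribosomal protein genes go by other names. Gnb2l1, the older name of the scaffold protein Rack1, was 20686, 27592 and 25320 normalized counts, highest in replicate 2. Fau, which encodes a small subunit protein fused to a ubiquitin-like one, was 5448, 3805 and 5219.

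The mitochondrial ribosomal protein genes, which encode the separate ribosome of that organelle, gave medians of 0.25, -0.36 and 0.09 in replicates 1, 2 and 3. Of the 76 detected, 58 were lowest in replicate 2, against 37.3% of all detected genes. The highest mean was that of Mrpl33, at 2979, 1654 and 2016 normalized counts, and the widest range was that of Mrps21, at 1411, 535 and 1133. They had a median coding length of 582 bases, against 453 bases for the cytosolic genes and 1371 bases for all detected genes.

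Other translation genes with TOP mRNAs did not share this order. Of 14, 2 were lowest in replicate 2, against 37.3% of all detected genes, and the medians were -0.12, 0.22 and -0.10. Their median coding length was 1128 bases. Eef1a1, the elongation factor that brings aminoacyl-tRNA, was 59821, 99536 and 79618 normalized counts, and Eef2, which moves the ribosome along the mRNA, was 23095, 40049 and 41047. Replicate 1 was the lowest in both. Of the 14, 6 were lowest in replicate 1, against 34.5% of all detected genes, and 4 were highest there, against 31.5%.

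The 22 genes of ribosome biogenesis had medians of -0.13, 0.12 and 0.05, and the 13 of RNA polymerase I and its factors -0.13, 0.13 and 0.10. Ncl, which encodes the nucleolar protein nucleolin, was 12409, 17450 and 13245, whereas Gar1, a protein of the box H/ACA particles that modify rRNA, was 851, 367 and 533. Polr1d was 3301, 1865 and 2778, and Polr1b, the second largest subunit of the polymerase, was 269, 489 and 504. The 13 regulators of TOP mRNAs and of S6 had medians of -0.27, 0.32 and 0.15. Among them Larp1, which binds the cap and the TOP start, was 3483, 4547 and 3553, and the translation repressor Eif4ebp2 was 165, 360 and 346.

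**Figure D4:**
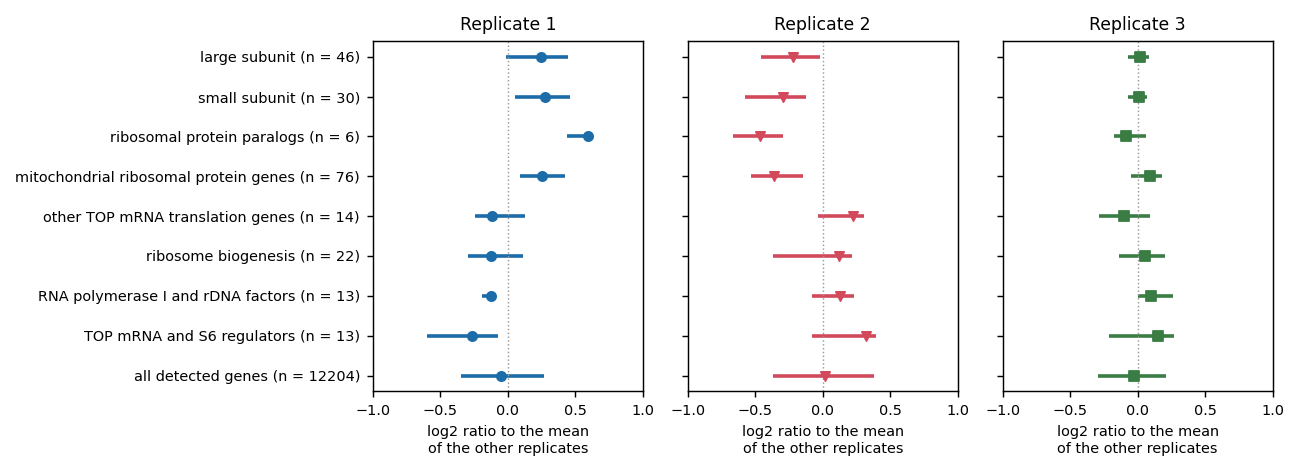
Median (marker) and interquartile range (bar) of the log2 ratio of each library to the mean of the others, for 8 gene groups and all detected genes, with the number of detected genes in parentheses. The medians of cytosolic and mitochondrial ribosomal protein genes and of the paralogs lie right of 0 in replicate 1. In replicate 2 these medians lie left of 0. The bar of the large subunit reaches just below 0 in replicate 1.

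Rpl13a is used as a reference gene in qRT-PCR. It was 26887, 19980 and 23073 normalized counts in replicates 1, 2 and 3, a 1.35-fold range with a coefficient of variation of 14.8%. Gapdh was 19026, 22277 and 26377, with 16.3%, and Actb was 110004, 86970 and 93512, with 12.3%. With 3 libraries these coefficients were not distinguished by a test.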

How the data were processed

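The authors prepared stranded mRNA libraries, aligned single reads to mm10 and deposited normalized counts (a signal), in which each library's read counts were divided by 1 size factor. Per the labels they used FastQC 0.11.5, TopHat2 2.0.13, SAMtools 0.1.19.24, HTSeq 0.5.3p3 and DESeq. All values (100%) were whole multiples of 1 read within 0.01, so reads were recovered, with size factors of 1.15, 1.42 and 0.844. With 1 condition no count test could be run. The table has 3 more columns of single libraries, left out because the labels assign them to no sample.

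A gene was detected at 10 normalized counts in every library, and log2 values used a pseudocount of 1. Lengths, overlaps and 50-base windows came from GENCODE M21 on GRCm38. Windows were sought among annotated transcripts on both strands, in place of the genome planned. Coding length came from RefSeq-matched transcripts. TMM factors and dispersions were taken from edgeR 4.0.16 (R 4.3.3), and all else was computed in Python 3.11.15. The steps were tested on simulated data. The members and gene lists were chosen with earlier results of these data known. Genes were named by preset roles, the 5 highest and lowest per kb, the 5 widest and narrowest ranges, and the highest mean and widest range of each other list; some of these are not reported here. Other genes given as values (Rpl3, Rps9, Rps18, Rps19, Fau, Rps27rt, Thy1, Tek, Pecam1, Kdr and the markers at 0) were chosen after their values were seen. Alternatives covered scaling, pseudocounts, minimums, lengths and left-out libraries.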

Additional observations from a re-analysis of the deposited data

How the results depend on the processing

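No paired analysis was possible because all libraries are of 1 condition. Of 90 alternatives for the 14 summary values, 69 kept direction and moved by less than the replicate spread (1.5 times for counts, the approximate 95% interval for correlations), 12 moved further and 9 reversed. Those 69 include shifts as large as the median SD of log2 from 0.20 to 0.12 without replicate 2. All 240 alternatives for 48 single genes stayed within the replicate spread. Leaving out 1 of 3 libraries cannot move a mean by its SD, so this outcome was fixed in advance for those single-gene alternatives. Pseudocounts and minimums could hardly move ribosomal protein genes, whose lowest read count was 1605. The median log2 ratio of the ribosomal protein genes reversed on residuals of exonic length and GC content, to -0.038 in replicate 1, 0.094 in replicate 2 and -0.0027 in replicate 3. On residuals of coding length and GC content, chosen after seeing the data, it was -0.12, 0.17 and -0.013. With equal totals replicate 3 gave -0.068, and with left-out libraries it ranged from -0.14 to 0.17, against 0.14 to 0.34 in replicate 1 and -0.34 to -0.17 in replicate 2. Genes with a range over 1.5-fold numbered 40 with the threshold at 25% and 5 with it at 2-fold, and 1 to 23 with a library left out. The SD of log2 level per kb, 1.04, became 0.96 for the longest coding transcript, 0.96 for the RefSeq-matched transcript (added after seeing the data) and 1.34 for own windows, and 1.04 to 1.05 with a library left out. The length correlations were chosen after seeing the data. With RefSeq-matched transcript length, rho was -0.50 in replicate 1 and 0.55 in replicate 2. With merged exon length, not counted among the 90 alternatives, it was only -0.15 and 0.30. With coding length and a library left out, rho ranged from -0.72 to -0.51 in replicate 1 and from 0.64 to 0.72 in replicate 2. In replicate 3 it ranged from -0.64 to 0.51. With 1 library left out, the ratio of each remaining library is minus that of the other. These values therefore mirror each other and are not separate measurements. The causes were not tested. Windows unique in the genome were not run. Depth limited no ribosomal protein gene, and 3 libraries limit every estimate of spread.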
